A study of Mus musculus with 6 samples.

Results

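A set of 10 genes of the splicing machinery with links to myeloid disease, Sf1, U2af2, U2af1, Sf3a1, Sf3b1, Prpf8, Luc7l2, Srsf1, Srsf2 and Srsf3, was followed in LSK cells with and without Tet1. Their readings were taken from every probe set whose platform annotation gives exactly 1 gene symbol, equal to 1 of the 10 names, which gave 41 of 45037 probe sets that are not controls. A probe set is a group of short array oligonucleotides that together report 1 value for a transcript, and the 10 genes had between 1 and 8 of them. LSK cells, which lack lineage markers and carry Sca-1 and Kit, are the marrow fraction in which blood stem cells and multipotent progenitors are found. Flow cytometry isolated them from 6-month-old mice, either Tet1 KO, which lack the 5-methylcytosine dioxygenase Tet1, or WT. The strain is labelled CD57BL/6 for both genotypes. Neither the allele nor the number of mice behind a sample is given in the sources used here. Each group had 3 samples with 1 Affymetrix array each, made from 125 ng of total RNA. The labels give replicate numbers but name no separate mice, so a p-value reflects only the spread among the samples, which may be partly technical. Replicate 3 of each group also differed from the others in Xist, as given below.

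Splicing removes introns in steps that these proteins carry out. SF1 binds the branch point of an intron, and the U2AF heterodimer of U2af2 and U2af1 binds the polypyrimidine tract and the AG at the 3′ splice site. The U2 small nuclear ribonucleoprotein, with its SF3a and SF3b parts, then replaces SF1 at the branch point, and Prpf8 sits at the catalytic centre of the assembled spliceosome. Luc7l2 belongs to a family of proteins that associate with the U1 particle at the 5′ splice site, and the SR proteins Srsf1, Srsf2 and Srsf3 bind exonic enhancers and help to define exons. In human myelodysplastic syndromes and related leukaemias, SF3B1, SRSF2 and U2AF1 are recurrently mutated at hotspots, and LUC7L2 and PRPF8 are mutated or lost. The hotspot mutations change splice site choice and are not read by an array that measures total transcript.

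All values are log2 intensities, so that a difference of 1 is a 2-fold change. Array medians lay within 0.0700 of each other. Tet1 itself checked the labels: the groups did not overlap at any of its 4 probe sets, where Tet1 KO was lower by differences between -1.68 and -0.93. None of the 4 passed adjustment over all probe sets, at an adjusted p of 0.686 each from limma with the Benjamini-Hochberg method. Where the deletion lies relative to these probe sets is not known here. The LSK markers measured here were all above background, which was taken as 4.39, the mean over arrays of the brightest bacterial control on each array. These were Kit, Cd34, Flt3, Procr, Slamf1, Meis1 and Hlf, while Ly6a, which encodes Sca-1, was not analysed here. Of 4 T and NK cell marker genes, 3 lay below background in both groups, and the summed level of the 4 was 6.58 to 7.01 in Tet1 KO and 6.20 to 6.46 in WT, whose part in the results was not tested. Of 3 erythroid marker genes, 2 lay below background in both groups. Summed marker levels overlapped between Tet1 KO and WT for B cells, at 9.22 to 10.62 and 8.94 to 10.69, and for granulocytes and monocytes, at 10.10 to 10.84 and 9.49 to 10.73, and those of mast cell and basophil and of megakaryocyte markers overlapped as well. Tet1 KO replicate 2 stood apart: its brightest bacterial control reached 4.87, while the highest of the other 5 arrays was 4.37. Its 3′ minus 5′ difference was also the lowest for both control transcripts, at -0.33 for beta-actin and 1.22 for Gapdh, while the other arrays lay between -0.15 and 0.09 and between 1.36 and 1.90. Xist, which marks cells of female mice, was low on Tet1 KO replicate 3 and WT replicate 3, at 3.57 and 3.73, and between 10.55 and 10.84 on the others.

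None of the 41 splicing factor probe sets passed the test for a difference between Tet1 KO and WT. With limma and Benjamini-Hochberg adjustment over 45037 probe sets, 0 of the 41 had an adjusted p under 0.05, the lowest being 0.686, and the same count over all probe sets was also 0, which is 0% of them. At an unadjusted p under 0.05 there was 1 of the 41, or 2.44%, against a background of 6.81% of all probe sets and 7.44% of the 22519 brighter ones, those with a mean at or above the median of all. That 1 was lower in Tet1 KO, as were 3.58% of all probe sets at this p, while 0 were higher, against 3.23%. Between the groups, 26 probe sets were lower in Tet1 KO and 15 higher, but only 20 were lower after quantile normalization, 15 after cyclic loess and 18 without Tet1 KO replicate 2. The median difference was -0.06, against 0.06 over all probe sets and -0.08 over the brighter ones, and it became 0.01, 0.04 and 0.03 under those 3 settings. Only 2 of the 41, or 4.88%, differed by at least 0.5 in either direction, while 14.1% of all probe sets did. The 95% interval of the difference held 0 for 40 of the 41, and for 33 it lay wholly between -1 and 1. In bulk RNA of sorted cells, fewer cells of a type and less RNA per cell cannot be told apart.

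**Figure D1:**
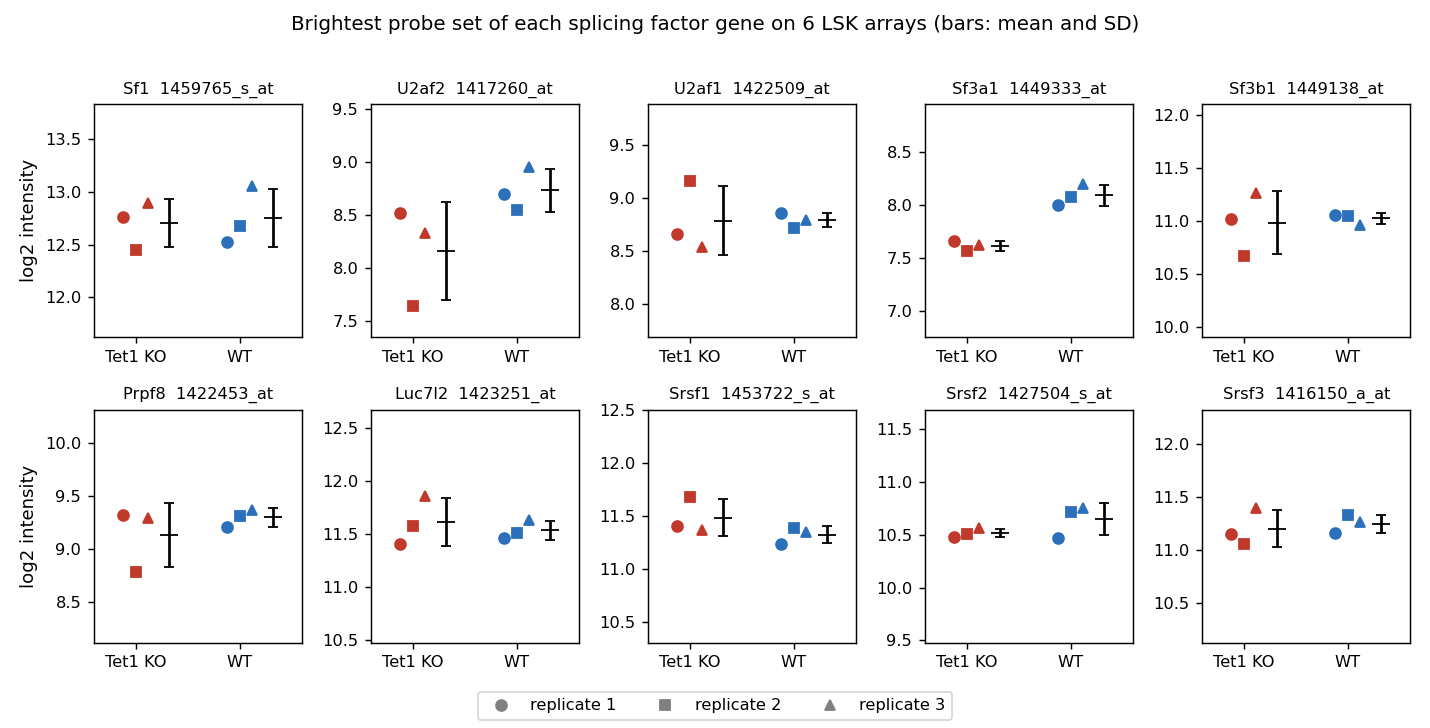
Log2 intensity of the brightest probe set of each of the 10 genes on the 3 Tet1 KO arrays (red) and the 3 WT arrays (blue), 1 panel per gene with an equal span on each axis, marker shape for the replicate number, and bars for mean and SD. The groups separate for U2af2 and Sf3a1, and the Tet1 KO spread is 0.05 for Sf3a1 but 0.46 for U2af2.

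The branch point and 3′ splice site factors were read by 7 probe sets, of which 6 were lower in Tet1 KO (4 after quantile normalization, 3 after cyclic loess), and at 2, both lower, the groups did not overlap, where 6.29% of all probe sets and 10.2% of the brighter ones were wholly lower. U2af2, the large subunit of U2AF that contacts the polypyrimidine tract, had 1 probe set, 1417260_at. It read 8.52, 7.64 and 8.33 on the Tet1 KO arrays, against 8.70, 8.55 and 8.95 on the WT arrays. Every Tet1 KO array was below every WT array, but Tet1 KO replicate 2 lay far below the other 2. The difference was -0.57 with a standard error of 0.26 and a 95% interval from -1.20 to 0.05 (limma unadjusted p = 0.0676, adjusted p = 0.686). Without Tet1 KO replicate 2 it was -0.31. Its partner U2af1, the small subunit that reads the AG dinucleotide and carries the hotspot mutations in human disease, had 1 probe set, 1422509_at. There the values were 8.66, 9.16 and 8.54 in Tet1 KO and 8.86, 8.72 and 8.79 in WT. The means differed by -0.0032, with a 95% interval from -0.48 to 0.47. The sign changed with 5 of 16 alternative settings, some of which leave every difference as it is. Here Tet1 KO replicate 2 was the highest of the 6 arrays, whereas it was the lowest for U2af2.

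Sf1, the branch point binding protein, had 5 probe sets that did not behave alike. The brightest, 1459765_s_at, read 12.76, 12.45 and 12.89 in Tet1 KO and 12.53, 12.68 and 13.06 in WT. The groups overlapped, with a difference of -0.05 (95% interval -0.54 to 0.44). Another, 1423750_a_at, read 10.42, 9.74 and 10.39 in Tet1 KO, against 10.60, 10.61 and 10.74 in WT. These groups did not overlap, the difference was -0.46 (SE 0.22, limma unadjusted p = 0.0747, adjusted p = 0.686), and without Tet1 KO replicate 2 it was -0.24. The dimmer 1423751_at, designed from the same sequence record, gave -0.49 with Tet1 KO replicate 3 inside the WT range, and -0.34 without Tet1 KO replicate 2. The remaining 2 gave -0.06 and 0.20. The lower Tet1 KO readings at 1423750_a_at and 1423751_at had no counterpart at the brightest probe set. Which transcript forms each one detects is not known here.

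Sf3a1 gave the clearest separation among the 10 genes. This subunit of the SF3a complex joins the U2 particle to the branch point region. Its brightest probe set, 1449333_at, read 7.66, 7.56 and 7.62 in Tet1 KO, against 7.997, 8.08 and 8.20 in WT. All 3 Tet1 KO arrays lay close together and below the lowest WT array. Means were 7.61 ± 0.05 in Tet1 KO and 8.09 ± 0.10 in WT (SD, n = 3 each), a difference of -0.48, or 0.719-fold, with a standard error of 0.14 and a 95% interval from -0.81 to -0.14. This was the 1 probe set of the 41 with an unadjusted p under 0.05 in limma, at 0.0124, and its adjusted p was 0.686. The sign was the same in 16 of 16 alternative settings, but only a new normalization could have changed it. Leaving out 1 array or weighting arrays could not, since the groups do not overlap. Level filters, an intensity trend, the replicate block and a term for low Xist leave every difference as it is. No sign could change under them at any of the 41 probe sets. The difference ranged from -0.52 to -0.35 over the 16 settings, with unadjusted limma p-values from 0.0132 to 0.0505, the last without WT replicate 3. It was -0.43 among the 4 arrays with high Xist and -0.57 between the 2 with low Xist. The other Sf3a1 probe sets did not separate the groups. At 1419087_s_at, designed from the same sequence record, the Tet1 KO arrays read 6.89, 5.08 and 6.47 and the WT arrays 6.67, 6.96 and 6.65, so that its difference of -0.61 rested on Tet1 KO replicate 2 and was -0.08 without it. Of the others, 1 gave -0.27 and 1, at 0.24, lay below background in both groups. Averaged over its 4 probe sets, Sf3a1 differed by -0.28 (limma unadjusted p = 0.303).

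Tet1 acts on cytosine in CpG dinucleotides, and methylation was not measured, so the sequence upstream of the start is given only to show its CpG content. In the RefSeq promoter table of build GRCm38.p6, 9 of the 10 genes had a window, and U2af2 had none. The 250 bases upstream of the start were searched for CG, which reads the same on both strands. These windows held between 1 CpG, for Luc7l2, and 35, for Srsf3, and 9 of 10 windows exceeded the median of 6 over 32851 windows, U2af1 having 2 that overlap. The window of Sf3a1, the gene with the lowest p, and that of U2af1, with a difference near 0, are shown with CpG in capitals, 5′ to 3′ on the gene's strand. The first lies at chr11:4160104-4160353 on the plus strand and the other at chr17:31658765-31659014 on the minus strand, both directly upstream of the annotated transcript start.
Sf3a1: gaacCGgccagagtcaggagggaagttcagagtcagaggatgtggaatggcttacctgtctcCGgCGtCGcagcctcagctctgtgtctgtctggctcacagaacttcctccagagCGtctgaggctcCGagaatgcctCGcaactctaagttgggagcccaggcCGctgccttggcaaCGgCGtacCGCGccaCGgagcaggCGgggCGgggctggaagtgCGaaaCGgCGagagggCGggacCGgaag
U2af1: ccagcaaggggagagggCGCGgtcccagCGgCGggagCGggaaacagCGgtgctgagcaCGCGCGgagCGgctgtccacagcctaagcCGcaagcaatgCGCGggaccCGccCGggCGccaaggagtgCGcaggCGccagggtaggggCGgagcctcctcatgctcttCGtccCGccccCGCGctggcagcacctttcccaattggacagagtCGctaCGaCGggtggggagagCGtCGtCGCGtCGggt
Sf3a1 has 20 CpG here and U2af1 has 31, and 17.9% and 5.19% of all windows hold at least as many. At least 1 CpG is present in 92.1% of all windows. By chromosome, 4 of the 10 genes, Sf3a1, Prpf8, Srsf1 and Srsf2, lie on mouse chromosome 11, and U2af1 and Srsf3 both lie on chromosome 17.

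Sf3b1, the largest SF3b subunit and the splicing gene most often mutated in human myelodysplasia with ring sideroblasts, showed no separation at any of its 4 probe sets. The brightest, 1449138_at, read 11.02, 10.67 and 11.26 in Tet1 KO, against 11.06, 11.05 and 10.97 in WT. The WT arrays lay together, with 1 Tet1 KO array among them, 1 below and 1 above, and a difference of -0.04 and a 95% interval from -0.49 to 0.41. Its sign changed in 4 of 16 alternative settings, among them quantile and cyclic loess normalization. At 1418562_at, with the smallest range of all 41 probe sets at 0.249 over 6 arrays, the difference was -0.12. At 1418561_at, designed from the same sequence record, the range was 1.45, with Tet1 KO replicate 3 at 5.94 and WT replicate 1 at 5.99 both more than 1 unit below WT replicate 3 at 7.39. The fourth, 1440818_s_at, gave 0.07.

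Prpf8, the central scaffold of the catalytic spliceosome, had 1 probe set, 1422453_at, at 9.32, 8.78 and 9.29 in Tet1 KO and 9.20, 9.32 and 9.37 in WT. Apart from the low Tet1 KO replicate 2, the arrays lay within 0.17 of each other. The difference was -0.16, with a 95% interval from -0.62 to 0.29, and without that array it was 0.01. Luc7l2 had 8 probe sets, the most of any of the genes, of which 5 were higher in Tet1 KO and 3 lower (6 and 2 after quantile normalization, 7 and 1 after cyclic loess), all 8 with overlapping groups. Its brightest, 1423251_at, read 11.40, 11.58 and 11.86 in Tet1 KO and 11.46, 11.51 and 11.63 in WT, a difference of 0.08 (95% interval -0.33 to 0.49). Its differences ran from -0.16 to 0.26. At 1458423_at the largest gap lay between Tet1 KO replicate 3, at 8.19, and WT replicate 3, at 6.73, the 2 arrays with low Xist, while the other 4 arrays lay between 6.88 and 7.45. Between those 2 arrays 1436766_at differed by 1.03 and 1436767_at by 0.80, but by -0.13 and -0.05 among the high-Xist arrays. For 1423251_at the same values were 0.23 and 0.0049, and for 1445717_at 0.04 and 0.11. The part of those 2 arrays in the higher Luc7l2 readings was not tested.

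**Figure D2:**
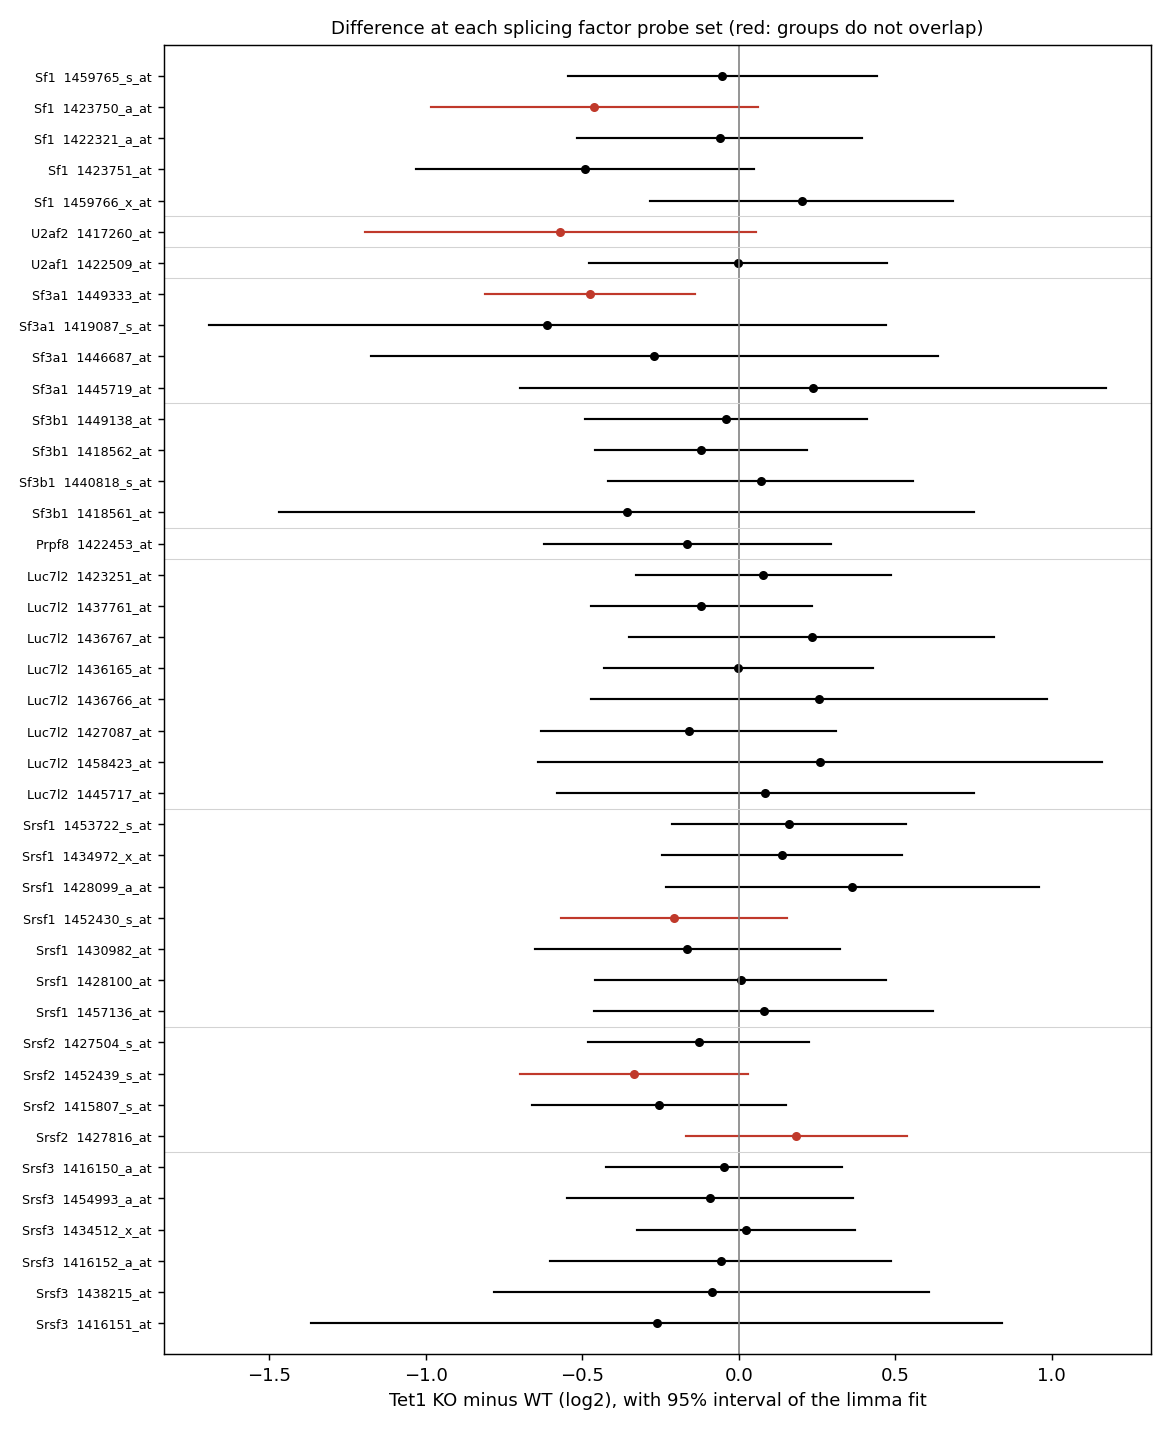
Tet1 KO minus WT difference in log2 intensity at each of the 41 probe sets (points) with its 95% interval from limma (lines), ordered by gene and brightness, with red where the 2 groups do not overlap. The interval excludes 0 only at Sf3a1 1449333_at, from -0.81 to -0.14.

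The SR protein genes were read by 17 probe sets, of which 10 were lower and 7 higher in Tet1 KO, turning to 6 lower and 11 higher both after cyclic loess and without Tet1 KO replicate 2. Srsf2, whose product binds both C-rich and G-rich exonic enhancers and is mutated in human chronic myelomonocytic leukaemia, had 4 probe sets with 3 lower and 1 higher. At the brightest, 1427504_s_at, values were 10.48, 10.50 and 10.56 in Tet1 KO, against 10.47, 10.71 and 10.75 in WT. The Tet1 KO arrays lay together inside the WT range, with a difference of -0.13 (95% interval -0.48 to 0.23). At 1452439_s_at they were 10.36, 10.29 and 10.24 in Tet1 KO, against 10.75, 10.70 and 10.44 in WT. No Tet1 KO array reached the lowest WT array there, and the difference was -0.33 (SE 0.15, limma unadjusted p = 0.0658, adjusted p = 0.686). Over 16 alternative settings the unadjusted limma p for it ran from 0.0387, when the prior variance followed intensity, to 0.199. The difference itself ran from -0.43 to -0.22. At the dimmer 1427816_at the groups separated the other way, at 6.01, 6.13 and 6.04 in Tet1 KO and 5.73, 6.00 and 5.90 in WT. That difference was 0.18 (95% interval -0.17 to 0.54). The remaining probe set, 1415807_s_at, gave -0.25 with overlapping groups. Separation alone was common: 5 of the 41 probe sets were wholly lower in Tet1 KO, where 6.29% of all and 10.2% of the brighter ones were, and 1 was wholly higher, where 9.96% of all and 4.62% of the brighter ones were. In either direction it was 6 of the 41, against 16.2% of all.

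Srsf1, the founding SR protein, also known as a proto-oncoprotein, had 7 probe sets that split in direction. The brightest, 1453722_s_at, read 11.41, 11.68 and 11.37 in Tet1 KO and 11.24, 11.39 and 11.35 in WT, a difference of 0.16 (95% interval -0.21 to 0.53). At 1452430_s_at the groups did not overlap, with 10.03, 9.83 and 10.16 in Tet1 KO and 10.17, 10.23 and 10.24 in WT. The gap there between the highest Tet1 KO and the lowest WT array was within the spread of the Tet1 KO arrays, and the difference was -0.21 (SE 0.15, limma unadjusted p = 0.218, adjusted p = 0.696). The highest difference of the 41, 0.36 at 1428099_a_at, came with 11.30 on Tet1 KO replicate 2, while the other 5 arrays lay between 10.26 and 10.61. Without that array it was 0.11.

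Srsf3, the smallest SR protein, had 6 probe sets with 5 lower and 1 higher in Tet1 KO, but all 6 higher without Tet1 KO replicate 2, and the groups overlapped at all 6. The brightest, 1416150_a_at, read 11.15, 11.06 and 11.40 in Tet1 KO, against 11.16, 11.33 and 11.26 in WT, a difference of -0.05 (95% interval -0.42 to 0.33). Tet1 KO replicate 2 was the lowest of the 6 arrays at all 6 Srsf3 probe sets. The distance varied between them, with that array 0.13 below the WT mean at 1434512_x_at and 1.39 below it at 1416151_at. At 1416151_at it read 6.34, and the other 5 arrays lay between 7.59 and 8.06. Genes of the SR family, Srsf1, Srsf2 and Srsf3 among them, are known to regulate their own messages through alternative exons and introns that mark a transcript for decay, and these arrays do not separate such forms.

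**Figure D3:**
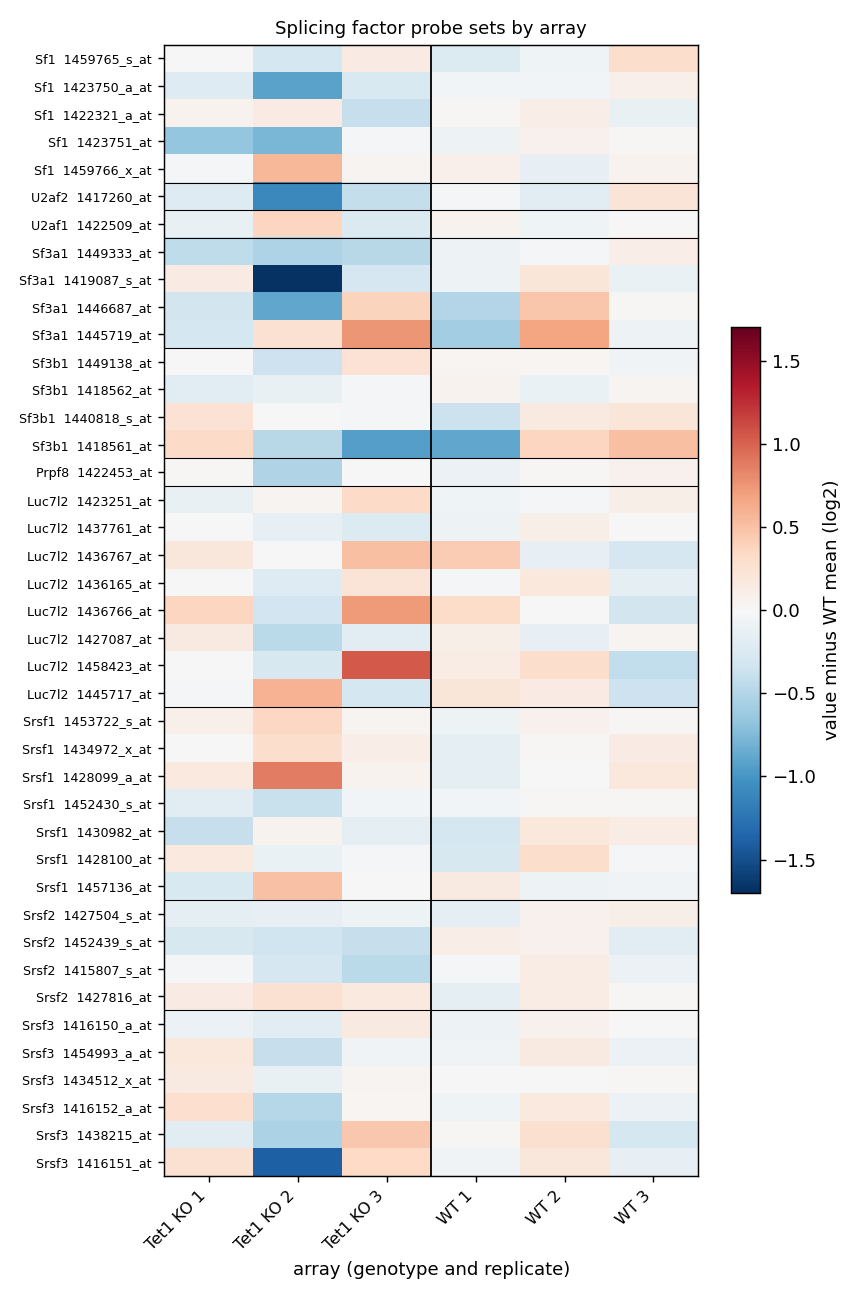
Value of each of the 41 probe sets (rows, by gene and brightness) on each array (columns, 3 Tet1 KO then 3 WT) minus the WT mean, in log2 units, blue for lower and red for higher. Tet1 KO replicate 2 holds the darkest cells, down to -1.68 at Sf3a1 1419087_s_at.

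The spread among arrays was wide beside most of these differences. The SD was larger among Tet1 KO than among WT arrays at 29 of 41 probe sets, or 70.7%, and at 71.9% of all probe sets, and its median over the 41 was 0.285 in Tet1 KO and 0.144 in WT. Tet1 KO replicate 2 was the lowest array at 19 of the 41, or 46.3%, against 24.6% of all probe sets and 38.5% of the brighter ones. It was also the highest at 9, or 22.0%, against 35.9% of all probe sets and 24.3% of the brighter ones, and 4 of the 9 belong to Srsf1. Its median over the 41 lay 0.22 below the WT mean, while Tet1 KO replicates 1 and 3 had medians of -0.00026 and -0.0038. The part played by the higher background and the lower 3′ to 5′ difference of that array in these readings was not tested.

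**Figure D4:**
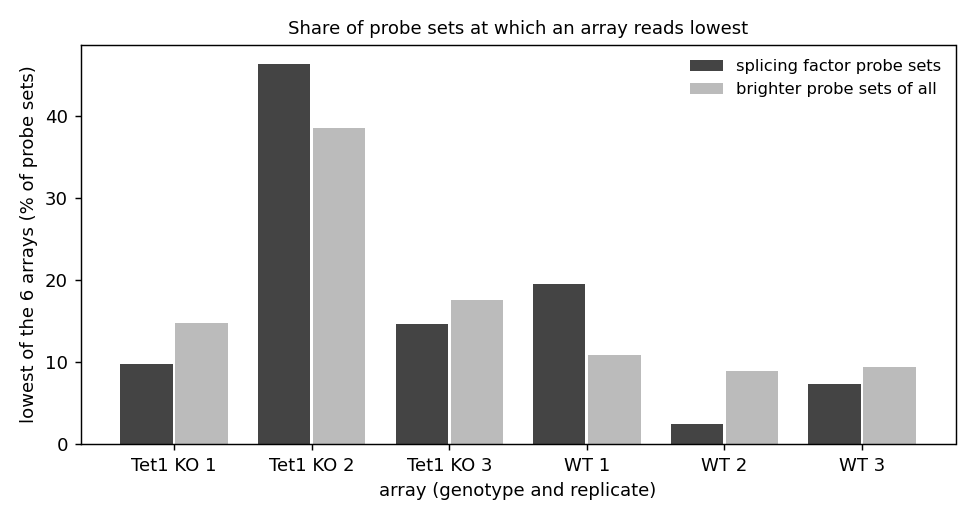
Percent of probe sets at which each array reads lowest of the 6, for the 41 splicing factor probe sets (dark bars) and for the 22519 brighter probe sets of all (light bars), with Tet1 KO arrays left of WT arrays. Tet1 KO replicate 2 leads in both, at 46.3% and 38.5%, and WT replicate 1 follows among the splicing factors, at 19.5%.

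Other genes of the splicing machinery did not pass the test either. Of 103 genes in lists of spliceosome parts and regulators, 93 were measured, by 264 probe sets, and 180 of these, or 68.2%, were lower in Tet1 KO, against 60.0% of the brighter probe sets of all. After quantile normalization 56.4% were lower, and 51.5% both after cyclic loess and without Tet1 KO replicate 2. The median difference was -0.09. None passed adjustment in limma, with 0 of 264 at an adjusted p under 0.05. An unadjusted p under 0.05 was found at 8 higher and 13 lower, together 7.95%, against 6.81% of all probe sets and 7.44% of the brighter ones. The partners of Sf3a1 and Sf3b1, the other genes of the U2 particle and its SF3 complexes, had 39 of 48 probe sets lower, with a median of -0.18. The groups did not overlap at 10, all lower, where 6.29% of all probe sets and 10.2% of the brighter ones were wholly lower. An unadjusted limma p under 0.05 was reached by 6, all lower, against 3.58% of all probe sets and 1238 of the 22519 brighter ones. After either quantile normalization or cyclic loess it was reached by 3, all lower, beside 885 and 850 of the brighter ones. Without Tet1 KO replicate 2 it was reached by 6 lower and 1 higher, beside 1430 lower and 755 higher of the brighter ones. After quantile normalization 35 of the 48 were lower with a median of -0.13, after cyclic loess 32 with -0.10, and without Tet1 KO replicate 2 34 with -0.13. The brighter probe sets of all had medians of -0.02, -0.0016 and -0.04 under these settings. In this list, Htatsf1, a U2-associated factor, gave -1.30 (SE 0.41) at 1 probe set and -0.85 (SE 0.28) at another, but -0.11 at its brightest. Smndc1, a spliceosome assembly factor, gave -1.01 (SE 0.32) at its dimmest probe set and -0.04 at its brightest. Sf3b2, a subunit of SF3b, gave -0.53 (SE 0.20) at 1456040_at, and all 7 of its probe sets were lower. The direct partners of Sf3a1 in the SF3a complex were looked up after their values were seen. Sf3a3 read 8.60, 8.70 and 8.61 at 1423811_at in Tet1 KO, against 8.89, 9.20 and 8.94 in WT, a difference of -0.38 (SE 0.15, limma unadjusted p = 0.0438, adjusted p = 0.686), and its other probe set gave -0.08. The 2 probe sets of Sf3a2 gave -0.13 and 0.23.

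Relatives of the 10 genes by family or complex gave values in both directions. U2af1l4, a paralogue of U2af1, read 7.04, 6.80 and 7.26 at its 1 probe set in Tet1 KO, against 7.63, 7.92 and 7.56 in WT. The groups did not overlap, and the difference was -0.67 (SE 0.19, limma unadjusted p = 0.00984, adjusted p = 0.686), beside a U2af1 difference of -0.0032. Luc7l, a paralogue of Luc7l2, gave 0.61 (SE 0.18) at its brightest probe set, 1452708_a_at, while its others ran from -0.34 to 0.08. Eftud2, a GTPase of the U5 particle that binds Prpf8, gave the lowest p of the lists. Its 1416557_a_at read 7.79, 7.59 and 7.52 in Tet1 KO, against 8.18, 8.44 and 8.40 in WT, a difference of -0.71 (SE 0.16, limma unadjusted p = 0.00318, adjusted p = 0.686). Its brightest gave -0.09, 1438835_a_at gave -0.39 with groups that did not overlap, and 1438836_at gave 0.19. Snrnp200, the U5 helicase that unwinds U4 from U6, gave 0.51 (SE 0.21) at 1 probe set and -0.19 at its other, and Cd2bp2, of the U5 particle, gave -0.49 (SE 0.17) at 1448624_at. Prpf6, a bridging protein of the tri-snRNP, gave 0.71 (SE 0.24) at a probe set below background in WT.

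The other SR proteins with their kinases and coactivators had 0 of 50 probe sets at an unadjusted limma p under 0.05, against 6.81% of all. Of the 50, 32 were lower and 18 higher, but 22 lower and 28 higher after cyclic loess. There 3 that were higher reached that p, beside 1025 of all 45037 probe sets. Without Tet1 KO replicate 2 it was 1 that was higher, beside 1735 of the 45037. The hnRNP genes, whose products often oppose SR proteins, had 40 of 61 lower (30 after cyclic loess). At an unadjusted limma p under 0.05 there was 1, Hnrnph1 at 0.56 (SE 0.22), where 3.23% of all probe sets were higher at that p. After cyclic loess there were 3, all higher, beside 1025 of all 45037. The U1 particle and LUC7 family list had 14 of 36 probe sets higher (20 after cyclic loess). Its differences ran from -1.36 to 0.73. An unadjusted limma p under 0.05 was found at 5 that were higher and 1 that was lower. Of all probe sets, 3.23% were higher and 3.58% lower at that p, and of the 22519 brighter ones 437 were higher and 1238 lower. After quantile normalization or cyclic loess it was found at 3 that were higher and 0 that were lower, and without Tet1 KO replicate 2 at 4 and 0. Of the 22519 brighter probe sets of all, 631, 684 and 755 were higher at that p under these settings. Rbm25, which associates with the U1 particle, gave 0.56 (SE 0.19) and 0.67 (SE 0.22) at 2 probe sets while its other 4 were between -0.38 and -0.19. Tia1, which helps U1 to bind weak 5′ splice sites, gave 0.73 (SE 0.27) at a probe set below background in both groups. Rbm5, a regulator of 3′ splice site choice, gave -0.70 (SE 0.21) at 1438069_a_at, at 8.22, 8.18 and 8.21 in Tet1 KO and 8.69, 8.68 and 9.33 in WT, while its others ran from -0.21 to 0.60. In the Sm core and the minor spliceosome lists, 2 further probe sets had an unadjusted limma p under 0.05 with overlapping groups, Snrpd3 at -0.92 and Zmat5 at -0.55, both named after their values were seen.

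**Figure D5:**
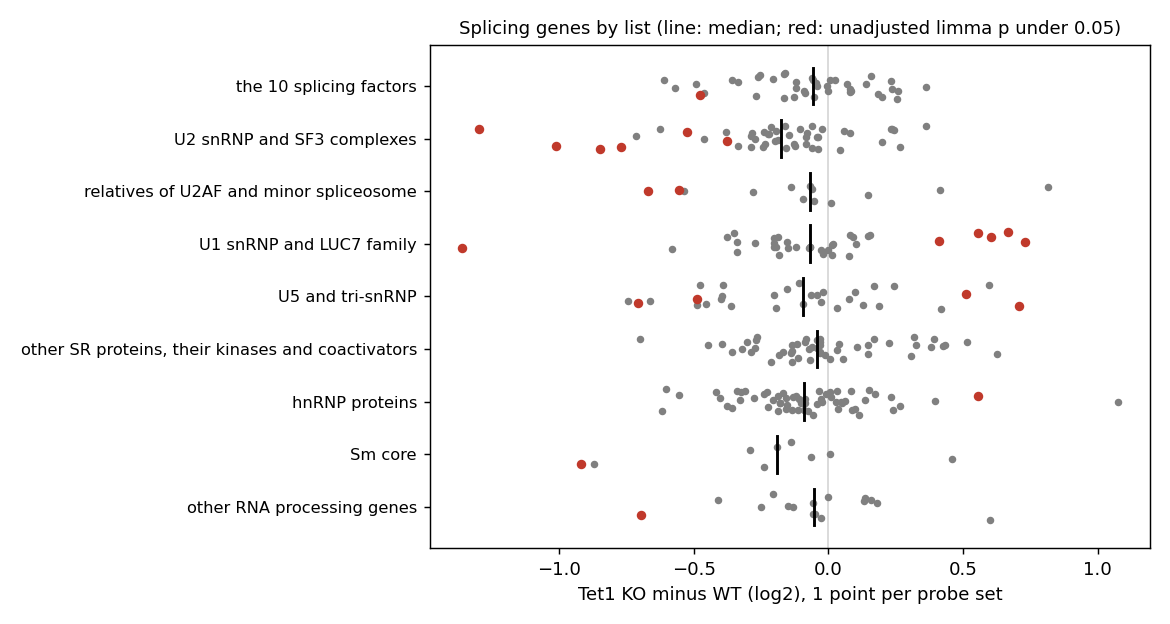
Tet1 KO minus WT difference in log2 intensity at each probe set (points) of the 10 splicing factors and of 8 lists of other splicing genes, with a line at the median and red for an unadjusted limma p under 0.05. The medians lie between -0.19 and -0.04, and the U2 and SF3 list has 6 red points, all below 0.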

How the data were processed

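Total RNA of LSK cells from 3 Tet1 KO and 3 WT samples was hybridised to Affymetrix arrays, 1 array per sample, per the labels' protocols. The deposited table holds log2 intensities for 45101 probe sets, with the scale read from the values, which run from 1.50 to 14.6. The sources used here do not give the authors' background correction, normalization or summarization, and no further step was applied. The 6 columns were matched to samples, and 64 control probe sets were left out of the tests. Of the others, 34945 had 1 gene symbol in the platform annotation, 932 had several and 9160 had none listed. limma 3.58.1 (R 4.3.3) was run on every non-control probe set (lmFit, eBayes, genotype as the only term, two-sided), with Benjamini-Hochberg adjustment over all of them at 0.05, and the fit was tested on simulated data. An exact permutation test of 3 against 3 cannot go below p = 0.1. Members with an unadjusted p under 0.05, no overlap or the highest mean of their gene are given with all 6 values, the rest by difference, range or count. From the lists of other splicing genes, up to 4 per list by p were named if they did not overlap at that p. Genes and lists were chosen with earlier results of these data known. Same-numbered arrays did not deviate together (correlations of 0.013, -0.0063 and 0.00054). Alternatives covered normalization, filters on level, gene-level summaries, variance models, array weights, blocks and leaving out each array. Figures were drawn with matplotlib 3.10.9.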

Additional observations from a re-analysis of the deposited data

How the results depend on the processing

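The number of splicing factor probe sets with an adjusted p under 0.05 was 0 in all 18 alternative settings, as was that of the other splicing genes. Over all probe sets it was 0 in 16 of the 18, and 1 with an intensity trend in eBayes, plain or robust, a probe set with no gene listed. The count of splicing factor probe sets at an unadjusted limma p under 0.05 was 1 as reported. It was 2 with an intensity trend, plain or robust, and also 2 in the fit with a replicate block. The labels do not say what same-numbered arrays share, and replicate 3 was low in Xist in both groups. The count was 0 of 10 genes after averaging each gene's probe sets. Leaving out 1 array gave between 1 and 2, 2 when either Tet1 KO replicate 1 or 3 was omitted, and gave 0 adjusted calls each time. The share of all probe sets at that p moves with the setting too, so 1 against 2 of 41 is not read as a change. Of 45037, 1612 were lower and 1453 higher as reported, 1872 and 1735 without Tet1 KO replicate 2, and 1427 and 1079 after quantile normalization. That share is not given here for the trend and block fits. Sf3a1 1449333_at, at an unadjusted p under 0.05 as reported, kept its sign throughout, although only a new normalization could have changed it. Of the 41, 12 changed sign without Tet1 KO replicate 2, 11 with cyclic loess, 9 with array weights and 6 with quantile normalization. The 3 arrays per group and the spread of Tet1 KO replicate 2 limit precision: the median 95% interval of a difference spanned 0.951. Probe sets near background, such as 1 of Sf3a1, have little signal to compare.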
